A study of Mus musculus with 6 samples.

Results

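The genes followed here are 29 genes of mature oligodendrocytes and the myelin sheath, taken by name from the deposited table of 55421 genes. The list was set by symbol, with earlier results of these data known, and each symbol matched 1 Ensembl identifier. RNA was sequenced from the hippocampus of wild-type male C57BL/6N mice, used at 8 to 10 weeks of age. Substance P (SP, 10 µM in 100 µL) was given under the skin to 3 mice over 14 days, and 3 vehicle mice received the same volume of saline. Each mouse gave 1 library, and within a group the mice carry the numbers 1 to 3, which the labels call a batch. The vehicle group therefore shares with the SP group the strain, the sex, the age range and the repeated injection. All directions follow the labels of the deposited libraries, and no gene in these data can check them. The labels and the study's own account give opposite signs to this comparison, *Mag* and *Mbp* included, and the sources used here do not settle which is right. If the labels were exchanged, every difference given here would keep its size and turn its direction.

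Oligodendrocytes are the cells that wrap axons of the central nervous system in myelin, a stack of lipid-rich membrane that speeds conduction and supplies the axon with metabolites. In the hippocampus they are most frequent in the fimbria, the alveus and the layers crossed by long axons. Transcription factors such as SOX10 and MYRF switch on the genes of the sheath, whose main proteins hold the membrane layers together. Other genes of the list make myelin lipids or carry iron and lipids. The question behind the comparison is whether weeks of raised peripheral SP alter gene expression in the hippocampus.

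By these labels, all 29 genes had a higher fitted level in the SP group than in the vehicle group, with log2 fold changes from 0.06 for *Nfasc* to 0.49 for *Nkx6-2* and a median of 0.30. Over all 17069 tested genes the median was 0.0015, and 50.5% had a fold change above 0. None of the 29 genes passed the thresholds of FDR (the Benjamini-Hochberg adjusted p) < 0.1 and |log2FC| > 0.3 in edgeR's quasi-likelihood test with the replicate number as a block, where 0.0293% of all tested genes passed. Their FDR ranged from 0.308 to 0.865. At an unadjusted p under 0.05, 17 of the 29 genes were higher and 0 were lower, against 4.48% and 5.59% of all tested genes. DESeq2 with the same block called 1 of the 29 genes, *Mag*, with 0.211% of all tested genes called. The standard errors given for edgeR were derived here, as the absolute log2 fold change over the square root of the test's F statistic. Those of DESeq2 come from its own fit, so the measures are unlike. With the block, the DESeq2 values were larger for all 29 genes, for *Mbp* 0.208 against 0.119. DESeq2 without the block called 7 (0.779% of all tested genes), and edgeR with no filter on low counts called 10 (1.37% of 28039 genes).

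The difference was largest in library SP 2, the second SP mouse. It was the highest of the 6 libraries in 28 of the 29 genes and lay above every vehicle library in all 29. Without replicate number 2, in 4 libraries, 27 of the 29 genes were higher and the median log2 fold change was 0.14, while 50.3% of 16753 tested genes were higher. In that fit 11 genes had an unadjusted p under 0.05 in the higher direction, against 5.34% of all genes, and the lowest FDR was 0.203. The median was 0.28 without replicate 1 and 0.43 without replicate 3, where 13 and 26 genes had an unadjusted p under 0.05. The shares of all tested genes in these fits are not given here.

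**Figure D1:**
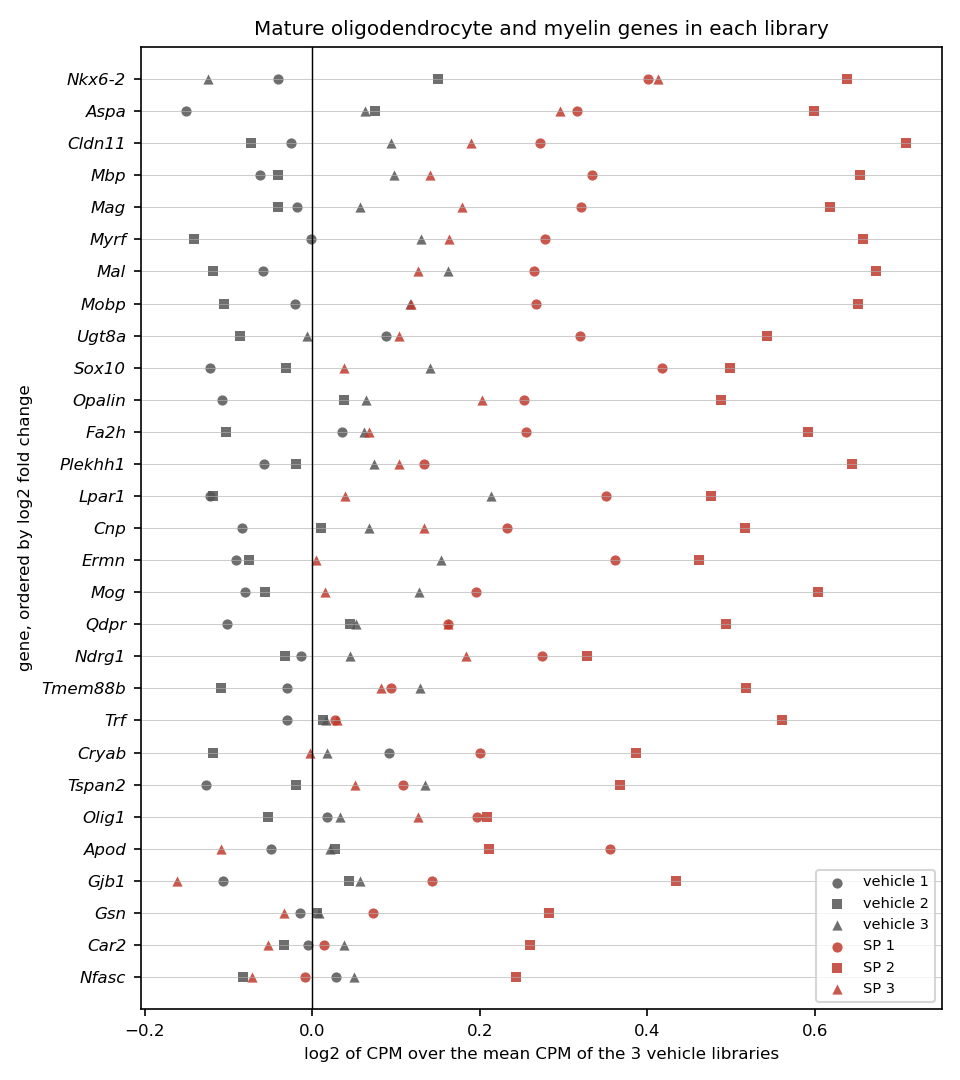
Log2 of the CPM (the count scaled to the normalized library size) of each of the 29 genes (rows) over its mean in the 3 vehicle libraries, with 1 point per library (grey for vehicle, red for SP, the shape giving the replicate number). SP 2 is the rightmost point in 28 of the 29 rows, and SP 3 lies above every vehicle library in 16.

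The sequence before the start of these genes was searched for the letters that SOX10 and MYRF are known to bind. RefSeq windows on GRCm38.p6, from 250 bases before a gene's start to 50 after it, were found for 20 of the 29 genes, in 31 windows because some genes have several starts that can overlap. The SOX core letters ACAAAG, on either strand, occurred in 35.5% of these windows and in 18.7% of all 32851 windows. The MYRF core letters, CTGGCAC or CTGGTAC, occurred in 19.4% and 7.10%. The E-box letters CAGCTG or CATCTG occurred in 35.5% and 30.6%, and TATAAA in 6.45% and 13.6%. A match is a string of letters and not a measured binding site, and the windows of 1 gene are not independent. Matches of different motifs can overlap and were counted separately for each motif.

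Shown here are stretches of 150 bases that hold no annotated exon base, read 5′ to 3′ on the gene's strand, with SOX and MYRF core letters on either strand in capitals. They were picked to show stretches with both motifs (*Mag*, *Cnp*), with the SOX core alone (*Opalin*, *Mobp*), with the MYRF core alone (*Mog*) and with neither (*Nkx6-2*, the gene with the largest fold change). A window of *Opalin* also held the MYRF core letters, outside the stretch shown here.
Mag, chr7:30914874-30915023, minus strand: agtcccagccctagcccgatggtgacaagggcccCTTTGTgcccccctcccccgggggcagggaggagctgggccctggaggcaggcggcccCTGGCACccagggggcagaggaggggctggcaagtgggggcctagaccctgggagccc
Cnp, chr11:100574754-100574903, plus strand: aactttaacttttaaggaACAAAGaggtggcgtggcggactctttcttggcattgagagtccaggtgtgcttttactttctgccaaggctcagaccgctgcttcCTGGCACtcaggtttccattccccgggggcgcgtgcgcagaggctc
Opalin, chr19:41077114-41077263, minus strand: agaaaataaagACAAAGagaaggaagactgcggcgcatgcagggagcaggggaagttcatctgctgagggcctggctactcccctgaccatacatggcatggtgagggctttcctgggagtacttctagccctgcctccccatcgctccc
Mobp, chr9:120149557-120149706, plus strand: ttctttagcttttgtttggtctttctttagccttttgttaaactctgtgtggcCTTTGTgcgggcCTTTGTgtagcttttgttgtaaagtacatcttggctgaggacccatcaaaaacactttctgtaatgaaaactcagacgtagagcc
Mog, chr17:37023399-37023548, minus strand: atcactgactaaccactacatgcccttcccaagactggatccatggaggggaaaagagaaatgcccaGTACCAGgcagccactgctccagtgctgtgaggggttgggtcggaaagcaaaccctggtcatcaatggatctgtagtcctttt
Nkx6-2, chr7:139582798-139582947, minus strand: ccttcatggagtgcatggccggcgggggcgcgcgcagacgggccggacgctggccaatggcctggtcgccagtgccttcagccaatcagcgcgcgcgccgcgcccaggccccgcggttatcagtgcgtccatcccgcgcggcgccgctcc

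Levels are compared between genes per length, as CPM divided by the length of the longest annotated transcript. On this scale the vehicle means ran from 3.43 CPM per kilobase for *Aspa* to 436 for *Mbp*. *Mobp* followed with 188, *Car2* with 93.9, *Cnp* with 92.0 and *Qdpr* with 89.2, and the ranges of the last 3 over the vehicle libraries overlapped. The transcription factors had 39.8 for *Olig1*, 14.2 for *Sox10*, 9.29 for *Myrf* and 4.33 for *Nkx6-2*. All were lower than *Qdpr*, but *Olig1* lay above *Mog*, with 25.1, and each lay above *Aspa*. The 29 genes lie on 16 chromosomes. An annotated gene overlaps 16 of them, on the same strand for 4 (*Mobp*, *Lpar1*, *Gsn* and *Trf*). They held between 187 and 79201 counts in a library, so that none was near the limit of 3 counts, which at this depth is 0.109 to 0.134 CPM. Together they took 0.504% to 0.548% of the counts in the vehicle libraries and 0.614%, 0.758% and 0.553% in SP 1, 2 and 3.

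**Figure D2:**
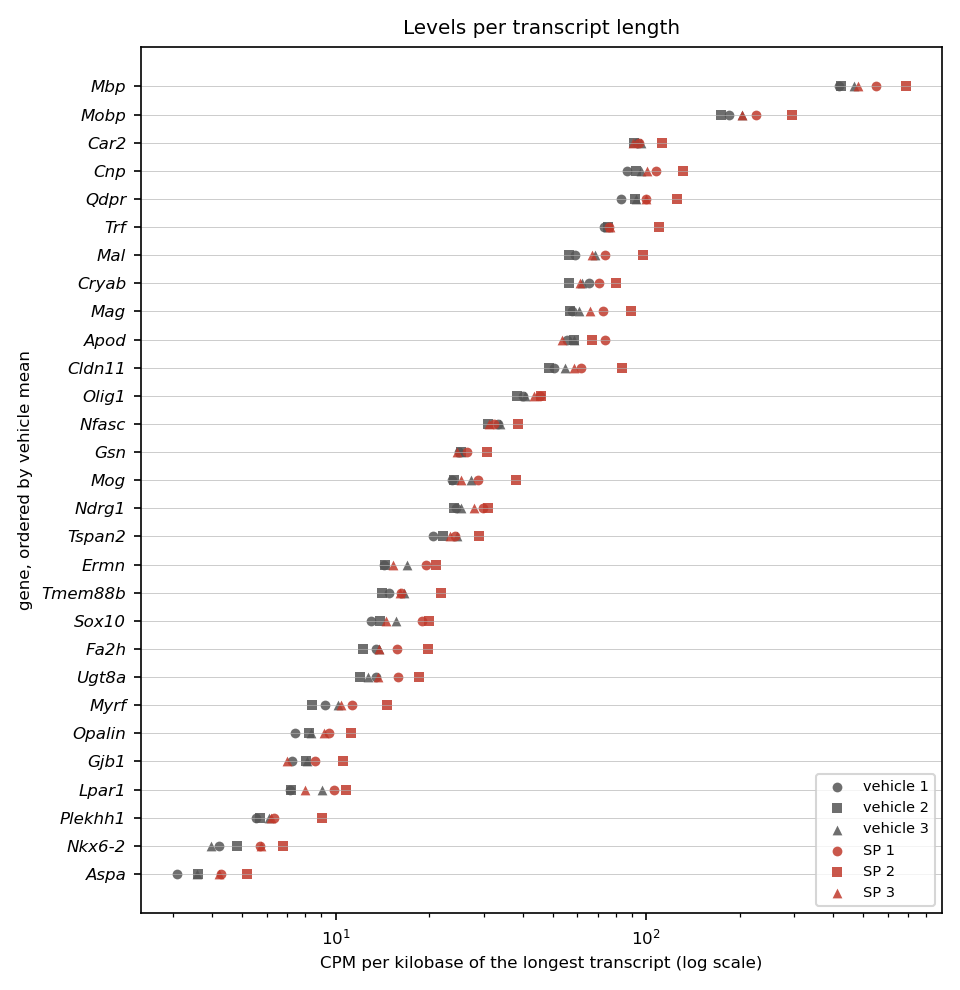
Level of each gene in each library, as CPM per kilobase of the longest transcript on a log scale, ordered by the vehicle mean (grey for vehicle, red for SP). *Mbp* lies at the top with a vehicle mean of 436 and *Aspa* at the bottom with 3.43.

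The membrane proteins of the sheath were led by *Mbp* (ENSMUSG00000041607, chromosome 18 of GRCm38 from 82475146 to 82585637), which encodes the basic protein that binds the cytoplasmic faces of compact myelin. Its expression was 2003, 2032 and 2236 CPM in vehicle 1, 2 and 3 and 2635, 3287 and 2304 CPM in SP 1, 2 and 3. The groups as labelled did not overlap, and SP 3 was closer to vehicle 3 than to SP 1. The fitted log2 fold change came to 0.38, with a standard error (SE) of 0.119 and an FDR of 0.415 in edgeR's test, and 0.22 without replicate 2. *Mobp*, which encodes another small basic protein of compact myelin, had 608, 573 and 668 CPM against 742, 968 and 669 CPM, so that SP 3 was level with vehicle 3. Its log2 fold change was 0.35 (SE 0.128), and 0.14 without replicate 2.

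*Cldn11* encodes the claudin of the tight junctions between myelin layers. It had 94.2, 91.1 and 102 CPM in the vehicle libraries and 116, 157 and 109 CPM in the SP libraries, with no overlap. The log2 fold change was 0.39 (SE 0.117, FDR 0.402), and 0.20 without replicate 2. *Mal*, a lipid raft protein that sorts cargo to the sheath, had 164, 157 and 191 CPM against 205, 272 and 186 CPM. Here vehicle 3 lay above SP 3, and the log2 fold change of 0.36 (SE 0.134) was 0.14 without replicate 2. The tetraspanin *Tspan2* and *Tmem88b*, a transmembrane protein, had log2 fold changes of 0.18 and 0.24 (0.07 and 0.04 without replicate 2) and did not pass an unadjusted p of 0.05. In both, vehicle 3 lay above SP 1 and SP 3. In all, 4 of these 6 genes were higher at an unadjusted p under 0.05, and 2 were without replicate 2. The shares of all tested genes were 4.48% and 5.34%.

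Among surface, adhesion and junction proteins, *Mag* (ENSMUSG00000036634, chromosome 7 from 30899176 to 30914873) encodes a glycoprotein on the innermost myelin layer that faces the axon. It had 140.1, 138 and 148 CPM in the vehicle libraries and 177, 218 and 161 CPM in the SP libraries. All 3 libraries labelled SP lay above the vehicle range, by the least in SP 3. The log2 fold change was 0.37 (SE 0.0946, FDR 0.350), and 0.23 (SE 0.0602, FDR 0.205) without replicate 2. *Opalin*, a sialylated membrane glycoprotein of mature oligodendrocytes, had 20.7, 22.9 and 23.3 CPM against 26.6, 31.3 and 25.7 CPM. Its groups did not overlap, and the log2 fold change of 0.32 (SE 0.0814, FDR 0.351) was 0.25 without replicate 2.

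*Mog*, which encodes an immunoglobulin-like protein of the outermost layer, had 40.4, 41.1 and 46.7 CPM against 48.9, 64.9 and 43.1 CPM. SP 3 lay within the vehicle range, and the log2 fold change was 0.28 (SE 0.130, FDR 0.526) with all libraries and 0.08 without replicate 2. *Lpar1*, a receptor for lysophosphatidic acid, and *Gjb1*, which encodes the gap junction protein connexin 32, had log2 fold changes of 0.30 and 0.14 (0.15 and 0.02 without replicate 2), with SP 3 within the vehicle range for the first and below it for the second. *Nfasc* encodes neurofascin, of which oligodendrocytes place one form at the paranode and neurons another at the node. The counts do not separate these forms. It had 325, 301 and 329.6 CPM in the vehicle libraries and 316, 377 and 303 CPM in the SP libraries, and the log2 fold change of 0.06 (SE 0.0864, FDR 0.865) was -0.08 without replicate 2. Only SP 2 lay above the vehicle range in *Nfasc*. Of these 6 genes, 2 were higher at an unadjusted p under 0.05, both with all libraries and without replicate 2. Among all tested genes, 4.48% and 5.34% were.

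Of the cytoskeletal and cytoplasmic proteins, *Cnp* encodes the phosphodiesterase that keeps cytoplasmic channels open in the sheath. It had 252, 269 and 280.0 CPM against 314, 382 and 293 CPM. The groups did not overlap, with a log2 fold change of 0.30 (SE 0.0820, FDR 0.380), and 0.19 without replicate 2. *Cnp* overlaps *Dnajc7* on the opposite strand, which had a mean of 3125 counts. The library kit keeps strand, but whether the counting used it is not given in the sources used here. *Plekhh1*, a gene of unsettled function in these cells, had 35.8, 36.7 and 39.2 CPM against 40.9, 58.2 and 40.0 CPM. *Plekhh1* overlaps *Pigh* on the opposite strand (mean 275 counts). SP 1 and SP 3 were close to vehicle 3, and the log2 fold change of 0.30 was 0.11 without replicate 2. *Ermn*, the actin-binding ermin of late oligodendrocytes, had 52.1, 52.6 and 61.7 CPM against 71.2, 76.4 and 55.6 CPM, a log2 fold change of 0.28 (SE 0.125) that did not pass an unadjusted p of 0.05 and was 0.15 without replicate 2. The actin-severing protein gene *Gsn* had a log2 fold change of 0.11 (0.02 without replicate 2) and vehicle values within 66.1 to 67.2 CPM, with only SP 1 and SP 2 above them. At an unadjusted p under 0.05, 2 of these 4 genes were higher, and 1 was without replicate 2. The shares of all tested genes were 4.48% and 5.34%.

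All 3 genes of lipid synthesis and acetate supply were higher at an unadjusted p under 0.05 and did not overlap between groups, against 4.48% and 9.19% of all tested genes. Without replicate 2, 2 of the 3 passed that p, and *Fa2h* did not. *Aspa* (ENSMUSG00000020774, chromosome 11 from 73304992 to 73329596) encodes the enzyme that frees acetate from N-acetylaspartate for lipid synthesis. It had 12.9, 15.1 and 14.9 CPM in the vehicle libraries and 17.8, 21.7 and 17.6 CPM in the SP libraries. SP 1 and SP 3 were nearly equal and both above the vehicle range, and the log2 fold change was 0.41 (SE 0.0887, FDR 0.313), with 0.35 (SE 0.108) without replicate 2. *Ugt8a*, which encodes the enzyme that makes galactosylceramide, had 50.9, 45.1 and 47.7 CPM against 59.7, 69.7 and 51.5 CPM. Its log2 fold change was 0.32 (SE 0.0986), and 0.17 without replicate 2. *Fa2h* encodes the hydroxylase of the fatty acids in these lipids. It had 33.7, 30.6 and 34.4 CPM against 39.3, 49.6 and 34.5 CPM, so that SP 3 exceeded vehicle 3 only narrowly, and its log2 fold change of 0.31 was 0.11 without replicate 2.

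The 4 transcription factors were all higher at an unadjusted p under 0.05, and the groups did not overlap in 3 of them, against 4.48% and 9.19% of all tested genes. Without replicate 2, 2 of the 4 passed that p, and their median was 0.19 on the log2 scale, against 0.35 with all libraries. *Nkx6-2* (ENSMUSG00000041309, chromosome 7 from 139579376 to 139582797) encodes a homeodomain factor of maturing oligodendrocytes. It had 8.04, 9.17 and 7.58 CPM in the vehicle libraries and 10.9, 12.9 and 11.0 CPM in the SP libraries. Its log2 fold change of 0.49 (SE 0.0922, FDR 0.308) was the largest of the 29 and was also 0.49 (SE 0.126, FDR 0.203) without replicate 2. *Nkx6-2* was the gene with the largest ratio in pair 3, a log2 ratio of 0.54, where the median of the 29 genes was 0.005. It overlaps *Inpp5a* on the opposite strand, which had a mean of 899 counts.

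*Myrf*, which encodes the membrane-released factor that drives myelin genes, had 52.6, 47.8 and 57.7 CPM against 63.9, 83.1 and 59.0 CPM. SP 2 stood well above the other libraries, and the log2 fold change of 0.37 (SE 0.130) was 0.16 without replicate 2. *Sox10*, a factor present at all stages of the lineage, had 36.2, 38.5 and 43.4 CPM against 52.6, 55.6 and 40.4 CPM. In *Sox10*, SP 1 and SP 2 were alike and SP 3 lay within the vehicle range, with a log2 fold change of 0.32 (SE 0.125). Without replicate 2 it was 0.22 and no longer passed an unadjusted p of 0.05. *Olig1*, a basic helix-loop-helix factor shared with precursors, had 87.1, 83.0 and 88.1 CPM against 98.6, 99.4 and 93.9 CPM. Its log2 fold change was smaller, 0.18 (SE 0.0561, FDR 0.414), but the 3 SP libraries were close together and above the vehicle range, and the value was 0.14 without replicate 2.

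The group of iron, pH, cofactor, lipid carrier and stress proteins had the lowest median of the 6 groups, 0.20 on the log2 scale. Of its 6 genes, 2 were higher at an unadjusted p under 0.05, against 4.48% of all tested genes. *Ndrg1*, a stress-responsive gene of the sheath, had 98.9, 97.5 and 103 CPM against 121, 125 and 113 CPM. Its groups did not overlap, the spread within each was small, and the log2 fold change was 0.26 (SE 0.0596, FDR 0.330), with 0.21 without replicate 2. *Qdpr*, which encodes the enzyme that regenerates tetrahydrobiopterin, had 115, 127 and 128 CPM against 138, 173 and 138 CPM. Its log2 fold change was 0.28 (SE 0.0702, FDR 0.351), and 0.19 without replicate 2.

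*Trf* encodes transferrin, the iron carrier made by oligodendrocytes and by choroid plexus. It had 188, 194 and 194 CPM in the vehicle libraries and 196, 283 and 196 CPM in the SP libraries. SP 1 and SP 3 were level with the vehicle libraries, and the log2 fold change of 0.21 was 0.03 without replicate 2. The small heat shock protein gene *Cryab* had a log2 fold change of 0.20, which was 0.04 without replicate 2. The apolipoprotein gene *Apod* was the exception to the rank of SP 2, with 153 CPM in SP 1 and 139 CPM in SP 2, while SP 3 at 111 CPM lay below the vehicle range of 116 to 122 CPM. Its log2 fold change was 0.15, and 0.14 without replicate 2. *Car2*, which encodes a carbonic anhydrase of oligodendrocytes and other cells, had 167, 164 and 172 CPM against 169, 201 and 162 CPM, and a log2 fold change of 0.07 (SE 0.0765, FDR 0.788) that was -0.04 without replicate 2.

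**Figure D3:**
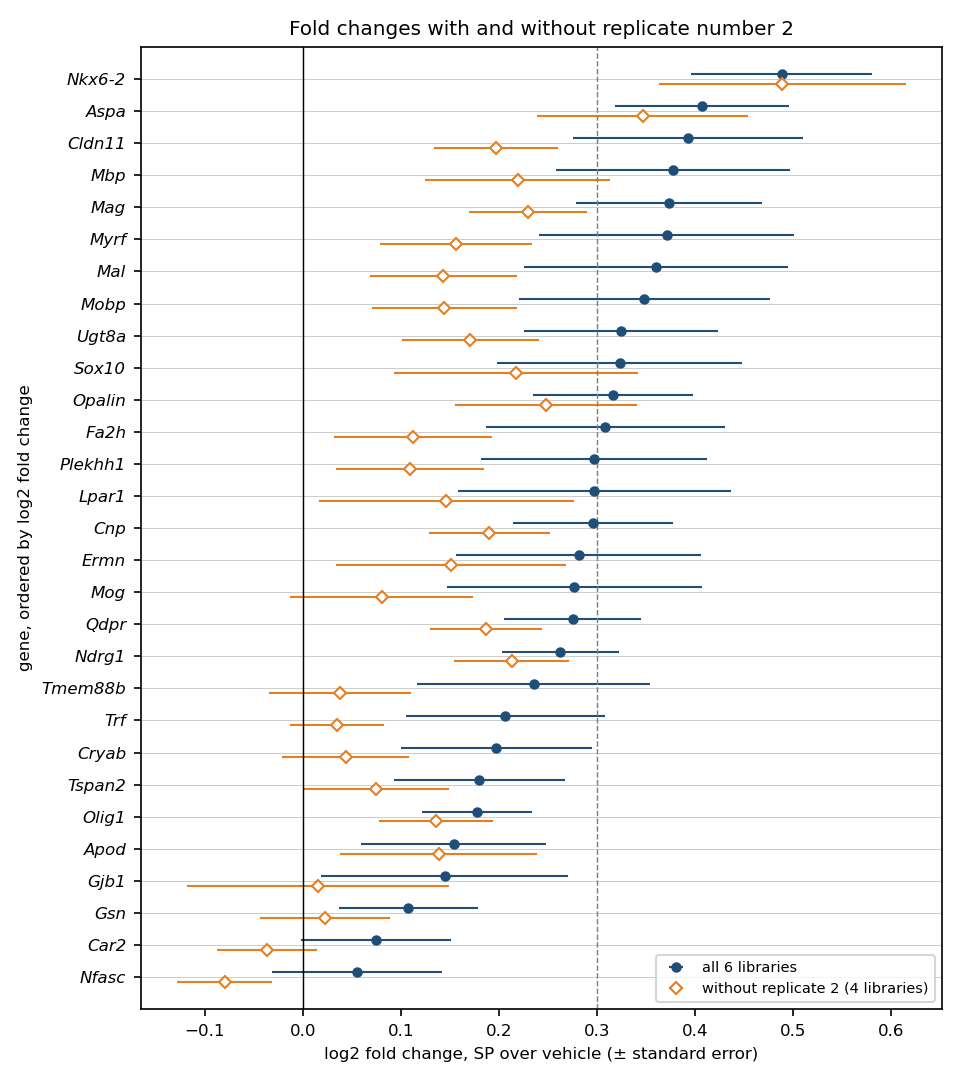
Log2 fold change of SP over vehicle with its standard error for each of the 29 genes, with all 6 libraries (filled circles) and without replicate number 2 (open diamonds), ordered by the first. The dashed line marks 0.3. Leaving out replicate 2 lowered the median from 0.30 to 0.14, left *Nkx6-2* at 0.49 and turned *Nfasc* and *Car2* below 0.

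A replicate pair is the SP mouse and the vehicle mouse of the same number, which are different animals. Their deviations from the group means correlated across genes with Pearson's r of only 0.0140, -0.0656 and 0.0734 in pairs 1, 2 and 3. Within these pairs, the log2 ratio of SP over vehicle had a median of 0.28 over the 29 genes in pair 1, 0.53 in pair 2 and 0.005 in pair 3. In pair 1, 28 genes were higher, in pair 2 all 29, and in pair 3 16, with ratios in pair 3 from -0.22 for *Gjb1* to 0.54 for *Nkx6-2*. The 16 genes higher in all 3 pairs compare with 16.4% of all tested genes. In 16 of the 29 genes every SP library lay above every vehicle library, against 9.19% of all tested genes. Without replicate 2 the corresponding count was also 16, against 22.2%. Vehicle 3 was the highest vehicle library in 24 of the 29 genes and SP 3 the lowest SP library in 26, so that the pair numbered 3 was close together in most of them. In tissue of this kind, more oligodendrocytes in a sample and more RNA of these genes per cell cannot be told apart.

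A further 39 genes of mature oligodendrocytes and myelin were all tested. They were listed by their known expression, but with earlier results of these data known. The median of their log2 fold changes was 0.23, and 34 were higher, against 50.5% of all tested genes. At an unadjusted p under 0.05, 15 were higher and 0 lower, against 4.48% and 5.59% of all tested genes. Of the 39 genes, 0 passed the FDR threshold. The genes with the smallest p were *Hapln2*, a link protein of the matrix around nodes (log2 fold change 0.51, FDR 0.308), *Ppp1r14a*, an inhibitor of myosin phosphatase (0.42, FDR 0.317), and *Adamts4*, a matrix protease (0.43, FDR 0.384). Without replicate 2 the median of the 39 genes was 0.10, and 7 were higher and 2 lower at an unadjusted p under 0.05. Among all tested genes, 5.34% were higher at that p in this fit, and the share that was lower is not given here.

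Genes of oligodendrocyte precursors and newly formed oligodendrocytes had values closer to 0. Of 23 listed, 22 were in the table and tested. The list had a median of 0.04 on the log2 scale, or 0.002 without replicate 2. Of the 22 genes, 13 were higher and 9 lower, with 2 in each direction at an unadjusted p under 0.05. Among all tested genes, 4.48% were higher and 5.59% lower at that p. *Enpp6* and *Neu4* passed it as higher, with log2 fold changes of 0.38 and 0.29. *Sox6* and *Pcdh15* passed it as lower, with -0.24 and -0.35. Without replicate 2 these values were 0.20, 0.18, -0.27 and -0.19. In that fit 0 genes of the list were higher and 2 lower (*Sox6* and *Tnr*) at that p, and 5.34% of all tested genes were higher. *Enpp6* marks newly formed oligodendrocytes, and *Sox6* is a factor of the precursor stage. The list was not divided by stage. *Sox6* had 22.9, 22.2 and 24.1 CPM in the vehicle libraries and 19.3, 19.5 and 19.8 CPM in the SP libraries, with no overlap. The precursor markers *Pdgfra* and *Cspg4* had log2 fold changes of -0.06 and -0.07. The difference between the precursor list and the mature list was not tested.

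For the 13 axonal partners of myelin at the node and paranode the median was -0.001 on the log2 scale. At an unadjusted p under 0.05, 0 genes were higher and 1 lower, against 4.48% and 5.59% of all tested genes. That gene was *Nrg1*, an axonal growth factor for myelinating cells, which had a log2 fold change of -0.47 (SE 0.154, FDR 0.417). Without replicate 2, 4 of the 13 genes were lower at that p (*Nrg1*, *Adam22*, *Kcna2* and *Ank3*) and the median was -0.04. *Cntnap1*, the axonal paranodal receptor that works with neurofascin, had 0.10. Of 8 markers of Schwann cells and peripheral nerve, 4 had enough counts to be tested, and 0 passed an unadjusted p of 0.05 in edgeR's test. Among the others, *Pmp2*, a lipid-binding protein gene of peripheral myelin, had at most 3 counts in every library.

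Markers of other cell types moved with some libraries as well. Among all tested genes, 4.48% were higher and 5.59% lower at an unadjusted p under 0.05, and 50.5% had a fold change above 0. Of 12 markers of hippocampal principal neurons, all detected, 11 were higher in the SP group, 5 of them at an unadjusted p under 0.05, and the median difference was 0.24 on the log2 scale (0.15 without replicate 2). Their summed level was 854.5 to 864 CPM in the vehicle libraries and 887 to 1053 CPM in the SP libraries, with SP 2 highest. Of 12 markers of neocortical and subicular neurons, 11 were lower, 4 of them at an unadjusted p under 0.05, and the summed level was 335 to 340.5 CPM against 280.1 to 318 CPM, with SP 2 lowest. The 10 leptomeningeal fibroblast markers were all lower, 3 at an unadjusted p under 0.05, with 203 to 217 CPM against 125 to 203 CPM and SP 2 again lowest.

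The 10 choroid plexus markers were all lower, 4 at an unadjusted p under 0.05, and their sum was 3891 to 4863 CPM in the vehicle libraries but 182 CPM in SP 1, 2870.3 in SP 2 and 4047 in SP 3. Their median was -1.13 on the log2 scale, -1.60 without replicate 2 and -0.33 without replicate 1. *Ttr*, the transthyretin gene that dominates choroid plexus RNA, was 125 CPM in SP 1. Medians of pan-neuronal, astrocyte, microglia and endothelial markers lay between -0.01 and 0.03 on the log2 scale. Of these 4 lists, 1 neuronal gene was higher and 1 astrocyte and 1 endothelial gene were lower at an unadjusted p under 0.05. The 8 thalamic and 8 striatal neuron markers had medians of -0.13 and -0.07 (0.09 and -0.16 without replicate 2). In each of these lists 5 genes were lower, 1 and 3 of them at that p, against 5.59% of all tested genes. The part of these shifts in the myelin result was not tested.

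**Figure D4:**
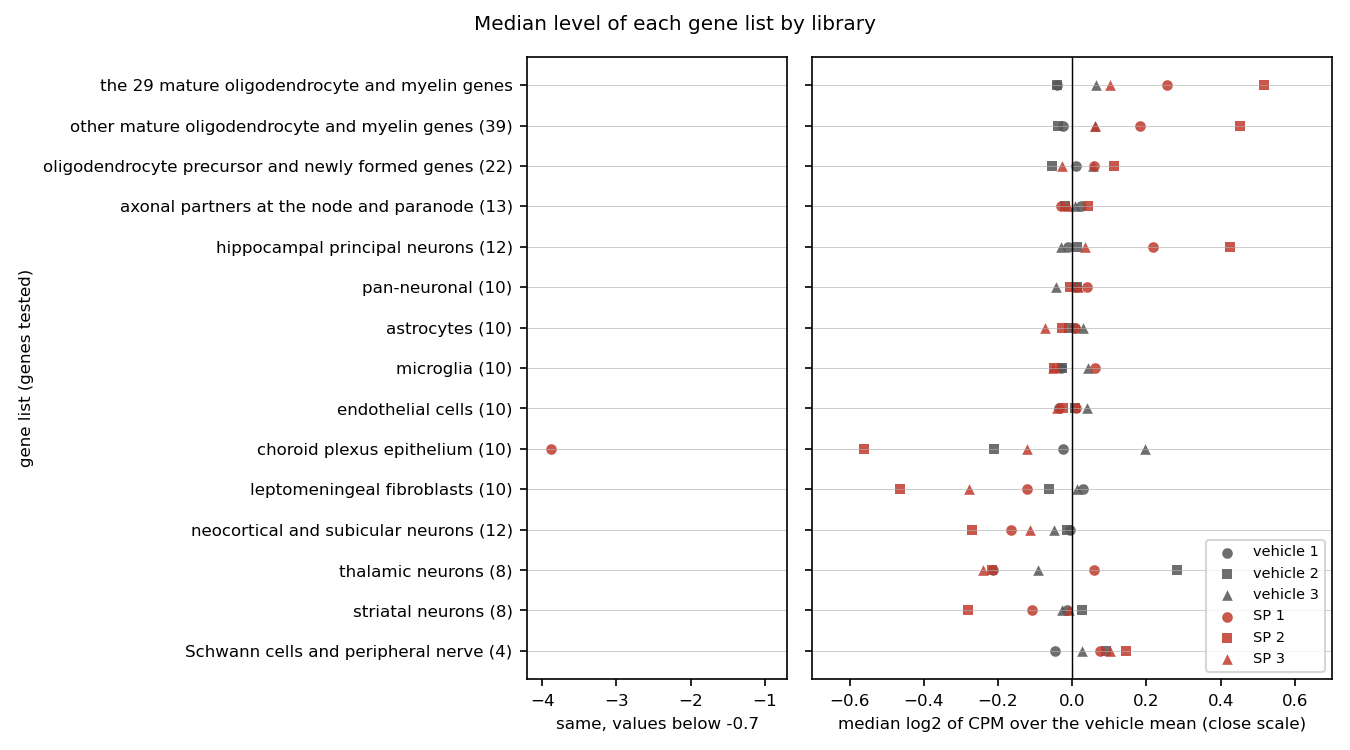
Median over each gene list of log2 CPM over the vehicle mean, with 0.1 CPM added to both, in each library (grey for vehicle, red for SP). The left panel shows values below the range of the right one on a coarser scale. The mature oligodendrocyte lists are highest in SP 2 and then SP 1. So is the list of hippocampal principal neurons, with 0.43 in SP 2 and 0.22 in SP 1. The precursor and axonal lists stay near 0, and the choroid plexus list is far lower in SP 1.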

How the data were processed

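The mRNA libraries were made with a stranded TruSeq kit. Per the study's methods, reads were cleaned with TrimGalore and processed in the Nextflow RNAseq pipeline, with STAR for alignment to GRCm38 and Salmon for quantification. The values the authors deposited are estimated counts per gene, scaled for neither library size nor gene length. Versions and the annotation release are not given in the sources used here. Counts were rounded. The libraries held 22349964 to 27605935 counts. All 174 values of the 29 genes lay within 0.01 of a whole number. In R 4.3.3, edgeR 4.0.16 kept 17069 genes by filterByExpr (minimum count 10, minimum total 15), normalized by TMM and tested by quasi-likelihood (glmQLFit, glmQLFTest). The replicate number was a block because the labels call it a batch and the study adjusted for replicates. Deviations from the group means in same-numbered mice correlated across genes with Pearson's r of 0.0140, -0.0656 and 0.0734. P-values were adjusted over all tested genes by the Benjamini-Hochberg method. With 3 mice a group, the smallest two-sided p of an exact permutation test is 0.1. P-values rest on the spread between these mice, which edgeR estimates by also sharing information between genes, so they do not measure each gene's spread alone. Count limits cover counting error only. Lengths, GC content and positions are from GENCODE M21 on GRCm38. The alternatives changed the block, the tool (DESeq2 1.42.0), the normalization, the filter, the thresholds, a correction for GC content and length, or left out each replicate number. Named were all 29 genes, in other lists mostly up to 3 genes of smallest p in each direction, and outside the lists the 10 genes most alike across libraries. *Pdgfra*, *Cspg4*, *Cntnap1*, *Adam22*, *Kcna2*, *Ank3*, *Tnr*, *Pmp2*, *Ttr*, *Dnajc7*, *Pigh* and *Inpp5a* were named outside this rule after their values were seen. The genes and lists were chosen with earlier results of these data known.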

Additional observations from a re-analysis of the deposited data

How the results depend on the processing

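The number of genes called over the whole table was 5, and it was 2 with no replicate block, 36 with DESeq2 and the replicate block, 133 with DESeq2 without it, 384 with no filter on low counts, 0 with at least 10 counts in every library, 0 at FDR under 0.05, and 9 to 36 without one replicate number. Of the 29 genes, 0 were called, but 1 with DESeq2 and the replicate block, 7 with DESeq2 without it and 10 with no filter. Of the 39 other myelin genes, 0 were called, but 3 with DESeq2 without the block and 5 with no filter. With edgeR, leaving out the block changed no call among the 29 genes, and their median log2 fold change was then 0.30. The causes were not tested. The median was 0.26 after correcting for gene GC content and length and 0.14 to 0.43 without one replicate number. Chosen after seeing the data were the counts at an unadjusted p under 0.05, 17 of the 29 genes and 15 of the 39 others, and of genes whose groups did not overlap, 16 of the 29. Without one replicate number they were 11 to 26, 7 to 22 and 16 to 28. Without replicate 2, 5.34% of all tested genes were higher at that p, and 22.2% had every SP library above every vehicle library. Such shares are not given here for the fits without replicate 1 or 3. Of 319 results for single genes over 11 settings, 299 kept direction and call, 18 gained a call, and 2 changed direction, both without replicate 2, *Nfasc* (-0.0797 to 0.141 without one replicate number) and *Car2* (-0.0364 to 0.154). With 3 mice a group, the standard error of these fold changes had a median of 0.0986 over the 29 genes.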

Other observations

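Outside the gene lists, the 10 genes whose log2 CPM was most like the mean log2 CPM of the 29 genes, among 10344 tested genes with at least 10 CPM on average, had Pearson's r of 0.990 to 0.996 over the 6 libraries. These values are a measure of likeness only, because the 6 points are the same libraries that gave the pattern. The closest was *Plekhb1*, which encodes a pleckstrin homology domain protein. It had 202, 204 and 233 CPM in the vehicle libraries and 259, 333 and 226 CPM in the SP libraries, a log2 fold change of 0.34 (FDR 0.436 from edgeR) that was 0.16 without replicate 2. *Plxnb3*, which encodes a semaphorin receptor, had a log2 fold change of 0.34 and *Gab1*, a docking protein of growth factor receptors, of 0.27. They were followed by smaller differences in *Crmp1* (0.13), *Crtc1* (0.19), *Map4k4* (0.15), *Rapgef1* (0.08), *Zcchc14* (0.19), *Nde1* (0.21) and *Gna12* (0.19). All 10 genes were highest in SP 2 and next highest in SP 1, as the 29 genes were in their mean. That order, like their positive fold changes, follows largely from how the 10 genes were picked.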
